A study of Mus musculus with 2 samples.

Results

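Gad1 and Gad2 encode the enzymes that make the inhibitory transmitter GABA, and the reads described here are the iCLIP reads that fell on them. A read was counted when its first and last base both lay inside a window given for the gene in the mm9 mouse build and it mapped to the plus strand. The windows were chr2:70390000-70442000 for Gad1 and chr2:22476000-22552000 for Gad2. They held 464 of the 64820 reads of the anti-Rbfox1 library, 413 for Gad1 and 51 for Gad2, and 0 of the 569 reads of the anti-Flag library. Both genes were picked because earlier results of these data had shown reads there, so their read numbers are a description and carry no test.

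The study compared 2 groups of 1 library each. The first was an iCLIP library made with anti-Rbfox1 antibodies, and the second a control library made with anti-Flag antibodies. Both came from mouse forebrain neurons cultured for 14 days in vitro. The cells were irradiated on ice with ultraviolet light of 254 nm at 500 mJ/cm2, then partly lysed for 1 min in 0.1% Triton X-100, and the material released, taken as cytoplasm, went into the precipitation. Genotype, strain and any pooling of animals are not stated in the labels. In iCLIP, ultraviolet light fixes a protein to the RNA it touches, and copying of the RNA into cDNA often halts where the protein was fixed. The base just upstream of a read therefore marks the contact and is called its crosslink position. The cell types in these cultures were not analysed here. Without RNA levels, binding per transcript and the amount of transcript cannot be told apart.

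GABA is made from glutamate by glutamate decarboxylase, an enzyme that uses pyridoxal phosphate as its cofactor. Gad1 encodes the form found throughout the cell, which makes most of the GABA of the brain, and Gad2 the form concentrated at nerve endings, which is held in reserve and made active on demand. Both are marker genes of inhibitory neurons. The neuronal protein Rbfox1 recognises the sequence GCAUG in RNA. In the nucleus it steers splicing, and its cytoplasmic forms are known to bind 3′ untranslated regions of mRNAs.

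The sequences that Rbfox proteins recognise are shown first, as they stand in the reference transcripts of both genes. They come from GENCODE M21 on GRCm38, a later build than that of the reads, so no read was placed on a transcript and it was not analysed here whether a read lies in an exon, an intron or an untranslated region. On the longest coding transcript, the 3′ untranslated region is 1218 nt long in Gad1 (ENSMUST00000094934.10) and 3528 nt long in Gad2 (ENSMUST00000028123.3), both on the plus strand of chromosome 2. GCATG was searched on the transcript strand alone, together with TGCATG, which contains it, and GCACG, a variant that Rbfox proteins also accept. The Gad1 region held 1 GCATG, 0 TGCATG and 0 GCACG. The Gad2 region held 3 GCATG, of which 1 was a TGCATG, and 1 GCACG. Each match is printed 5′ to 3′ with its flanks, and capitals mark the motif. Bases are counted from the start of the untranslated region to the first base of the motif.
Gad1 GCATG at base 287: ctagaccataGCATGttgctcgtcc
Gad2 GCATG at base 165: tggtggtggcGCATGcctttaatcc
Gad2 GCATG at base 2318: ccttgctcggGCATGcaaatcttct
Gad2 GCATG at base 2362: ggaggtacatGCATGcccagtactt
Gad2 GCACG at base 3274: gtatcatcttGCACGtgcttttctg

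The Gad1 match begins 932 nt before the transcript ends. In Gad2 the GCATG matches begin 3364, 1211 and 1167 nt before the end, the last of them being the TGCATG, and the GCACG begins 255 nt before it. The GCATG matches at bases 2318 and 2362 thus stand close together, while the other lies far upstream of them. Such matches are common: of 19329 coding genes with a transcript of at least 1000 nt, 59.9% had GCATG in the last 1000 nt of the longest one, 26.7% had TGCATG and 21.3% had GCACG. In that stretch Gad1 had 1 GCATG, 0 TGCATG and 0 GCACG, and Gad2 had 0 GCATG, 0 TGCATG and 1 GCACG. The GCATG matches of Gad2 thus lie upstream of it. Of 14192 genes with a transcript of at least 2000 nt, 83.9% had GCATG in the last 2000 nt, 46.6% TGCATG and 39.6% GCACG. There Gad1 and Gad2 each had 2 GCATG, of which 1 was a TGCATG, and 1 GCACG. In Gad1 that stretch reaches beyond the 3′ untranslated region. A match is a description of the letters and not a site of binding.

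Gad1 carried the larger signal. Its 413 anti-Rbfox1 reads (exact Poisson 95% interval 374 to 455) made up 0.637% of that library (exact Clopper-Pearson 95% interval 0.577 to 0.701). Gad2 had 51 reads (38.0 to 67.1), or 0.0787% (0.0586 to 0.103). Gad1 thus had 8.10 times the reads of Gad2 (exact 95% interval 6.04 to 11.1). RNA levels were not measured, so this is not a ratio of binding per transcript. By distinct crosslink positions the genes were closer, with 187 in Gad1 and 44 in Gad2. These intervals cover counting error alone. PCR copies are not independent molecules, and there is no second library of either kind.

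The anti-Flag control had 0 reads in both windows, which allows a share of up to 0.527% of that library by a limit of 3 counts. The exact 95% interval for 0 reads reaches 0.646%, just above the Gad1 share of the anti-Rbfox1 library, so no fold over the control is given. At an equal share of both libraries, 3.63 control reads would fall on Gad1 and 0.448 on Gad2. By the exact interval, a difference from the control was thus not detectable at this depth for either gene. The limit of 3 counts lies below the Gad1 share of 0.637% and above the Gad2 share of 0.0787%. For Gad1 the reading thus depends on the limit used, and no difference is claimed. On the minus strand, both windows held 0 anti-Rbfox1 and 0 anti-Flag reads, so every deposited read of either window ran in the direction in which both genes are transcribed. The plus-strand anti-Rbfox1 reads nearest to the windows were far off, at least 87140 nt away for Gad1 and 500930 nt for Gad2. Inside, the last read ended 1941 nt before the downstream edge of the Gad1 window and 2611 nt before that of Gad2, so moving either edge by less than these distances would not change the members.

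Crosslink positions within 20 nt of each other were joined into clusters, which gave 10 in Gad1 and 5 in Gad2. Of these 15 clusters, 11 held 10 reads or more, 9 in Gad1 and 2 in Gad2. Among all 10134 anti-Rbfox1 clusters the share of that size was 12.3%. The genes had been chosen by this readout, so nothing is read from the contrast. None of the 15 overlapped a control read, against 0.572% of all anti-Rbfox1 clusters that did, so an absence of control reads is the usual state.

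**Figure D1:**
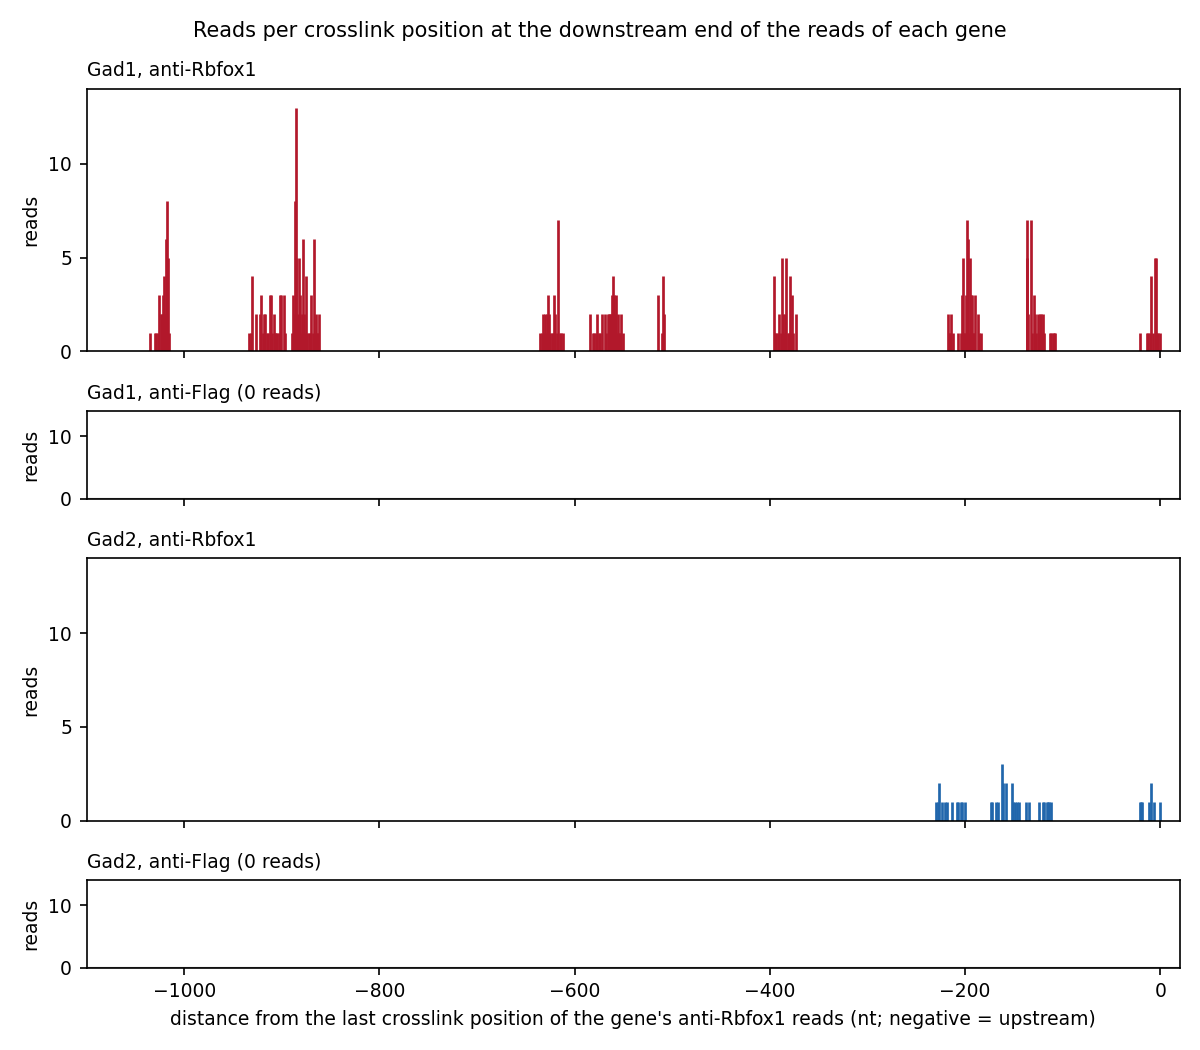
Anti-Rbfox1 and anti-Flag reads per crosslink position (vertical axis, reads) at the downstream end of the reads of each gene. The horizontal axis is the distance from the gene's last crosslink position in nt (negative is upstream). The small clusters further upstream, a single one in Gad1 and a pair in Gad2, lie outside the plot. Gad1 shows 9 groups of positions over about 1 kb, with the highest position at 13 reads, Gad2 shows 3 groups near the end with at most 3 reads at a position, and the anti-Flag panels hold 0 reads.

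The Gad1 reads were packed into a short piece of the window. Of the 413, 411 (99.5%) lay in 9 clusters between chr2:70438992 and chr2:70440059, a stretch of 1068 nt. The other 2 formed a single small cluster 11116 nt further upstream. Joined with neighbours within 1000 nt, this stretch ranked seventh by reads of the library's 7297 stretches and tied for the 15th place by clusters. Within it, the 9 clusters together spanned 270 of the 1036 nt from the first to the last crosslink position, 26.1%, and the gaps between them were 28 to 227 nt wide. The separation into groups follows in part from the joining rule, and the reads of some neighbours overlapped or touched: those of the cluster ending at base 70439459 overlapped the next, which began at base 70439443, and joining within 50 nt left 7 clusters in the gene.

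The highest Gad1 cluster held 122 reads at 50 crosslink positions, 29.5% of the reads of the gene (25.2 to 34.2). It lay between positions 70439092 and 70439164 of chromosome 2 and ranked 34th of all clusters by reads. Clusters of 100 reads or more make up 0.464% of the library's clusters, and this was the single one in either gene. The cluster had an inner break of 7 nt, with 43 reads at 23 positions upstream of it and 79 reads at 27 positions downstream. The downstream piece contained the position with most reads in either gene, 70439140, where 13 reads of different lengths began just downstream. That number was reached at 12 of the library's 47896 positions.

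The other deep Gad1 clusters were smaller and more alike. In order from upstream, they held 40, 34, 45, 10, 38, 56, 44 and 22 reads, the first of them upstream of the highest cluster and the rest downstream. The cluster of 40 reads was the most compact of the larger ones, with 14 positions within 20 nt and 8 reads at its top position, 70439008. In that cluster 9 reads shared the last base 70439027. The cluster of 56 reads, at positions 70439809 to 70439842, was the second highest of the gene and ranked 143rd of the library. The most downstream cluster, of 22 reads, ended at the last crosslink position of the gene, 70440026. Together the highest cluster and its upstream neighbour held 162 of the 411 reads, 39.4%, so most of the signal lay downstream of them.

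**Figure D2:**
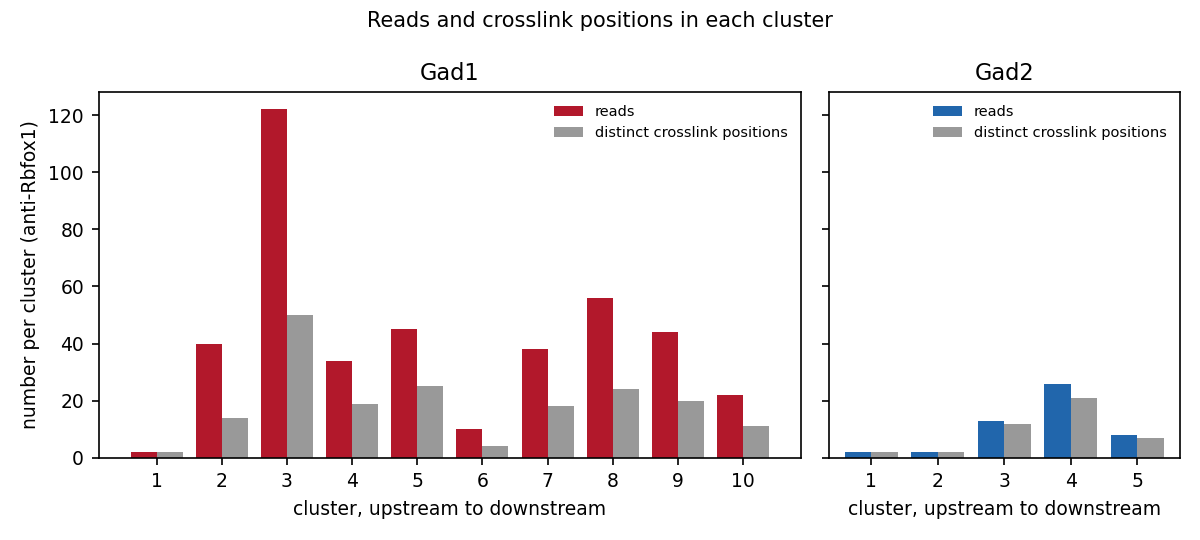
Anti-Rbfox1 reads (coloured bars) and distinct crosslink positions (grey bars) in each cluster of Gad1 and Gad2, numbered from upstream to downstream. Gad1 cluster 3 stands out with 122 reads, 8 other Gad1 clusters hold 10 to 56, and the highest Gad2 cluster holds 26.

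The Gad2 reads also lay mostly in 1 short stretch of the window. Of the 51 reads, 47 (92.2%) lay in 3 clusters between chr2:22549129 and chr2:22549389, a stretch of 261 nt. From upstream, the 3 held 13, 26 and 8 reads, at 12, 21 and 7 positions. Their widths came to 115 of the 231 nt from the first to the last of these crosslink positions. That is a larger part than in Gad1, but it depends on the joining rule and on the number of clusters. The middle cluster of the 3 held 51.0% of the reads of the gene (36.6 to 65.2) and ranked 390th in the library. The remaining 4 reads formed a pair of clusters of 2 reads each, at positions 22540926 to 22540927 and 22545938 to 22545948. By reads the Gad2 stretch ranked 245th of 7297, and by reads per length it was the sparser one, with 18.0 reads per 100 nt in Gad2 and 38.5 in Gad1. Of the 15 clusters of both genes, 12 lay in stretches of at least 2 clusters, 9 of 10 in Gad1 and 3 of 5 in Gad2. Among all anti-Rbfox1 clusters the share was 41.5%, and a closer background is given further on. The genes were chosen by their reads, so nothing is read from this contrast either.

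**Figure D3:**
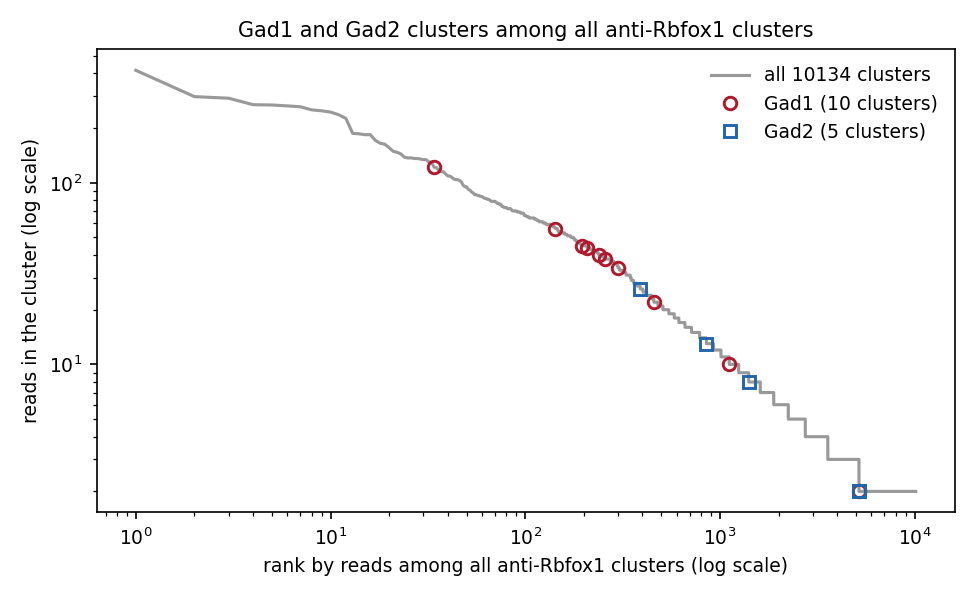
Reads per cluster (log scale) against rank among all 10134 anti-Rbfox1 clusters (log scale, grey line), with the 10 Gad1 clusters as circles and the 5 Gad2 clusters as squares. Gad1 clusters reach rank 34 and most lie between ranks 100 and 500, Gad2 clusters reach rank 390, and a cluster of 2 reads in Gad1 and a pair of them in Gad2 share the lowest rank.

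The genes also differed in reads per crosslink position, a value that depends on how many reads a gene has. Gad1 had 2.21 reads per crosslink position and Gad2 1.16, where the whole anti-Rbfox1 library had 1.35. In Gad1, 97 of 187 positions (51.9%) held at least 2 reads, in Gad2 6 of 44 (13.6%), and in the library 20.6%. Positions of 5 reads or more numbered 21 in Gad1 (11.2%), spread over 7 of its clusters, and 0 in Gad2, against 1.72% in the library. In Gad2 the position with most reads was 22549196, with 3. So Gad1 positions often held more than 1 read, while Gad2 positions were mostly hit by 1 read (38 of 44). Reads with the same start and end had been collapsed, so reads that share a position differ in length. More reads on a stretch put more of them on the same base by number alone. The Gad1 stretch held 38.5 reads per 100 nt and that of Gad2 18.0. Whether the genes differ beyond this was not tested.

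**Figure D4:**
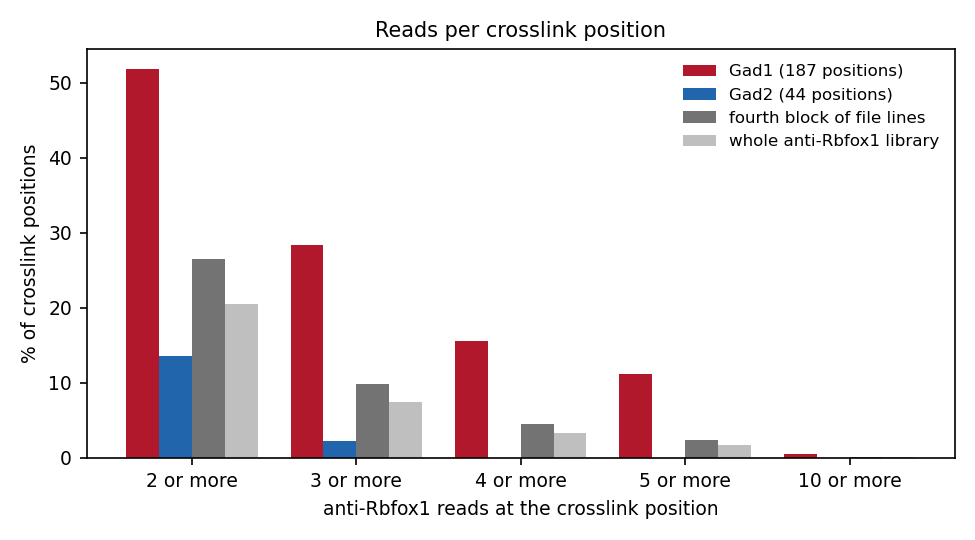
Percentage of crosslink positions (vertical axis) with at least 2, 3, 4, 5 or 10 anti-Rbfox1 reads, for Gad1, Gad2, the fourth block of file lines and the whole library. Gad1 lies above the library at each number, with 51.9% of positions at 2 or more, and Gad2 lies below it, with 13.6%. The sets are not matched by number of reads.

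The lines of the anti-Rbfox1 file fall into 11 blocks, in each of which the chromosome order starts again, and their meaning is not stated in the labels. In some blocks no reads share a start, which limits a plus-strand position to 1 read. The fourth block, where reads do share starts, held 411 of the 413 Gad1 reads and 49 of the 51 Gad2 reads, and the ninth held the other 2 of each gene. It is therefore the closer background for reads per position and per cluster. In it, 26.5% of positions held at least 2 reads and 2.32% at least 5, and 22.0% of the 4980 clusters with reads from that block alone held 10 reads or more. The Gad1 shares of positions lay above these values and those of Gad2 below them, without matching by number of reads. The share of those clusters in stretches of at least 2 was 61.8%. The control file has blocks too, and that with most overlap with the fourth block was taken as its partner, a pairing inferred from 71 overlapping reads among its 185. If the pairing holds, 1.58 of these control reads would fall on Gad1 at an equal share and 0.189 on Gad2.

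Read length did not set the genes apart from the library by more than 1 nt at the median. The median was 27 nt in Gad1 (interquartile range 22 to 35) and 27 nt in Gad2 (24 to 33.5), against 28 nt in the whole anti-Rbfox1 library (23 to 35). The Gad1 reads were 15 to 67 nt long and the Gad2 reads 18 to 45 nt. They ended at 192 distinct last bases in Gad1 and 34 in Gad2, so the reads of both genes were varied at both ends.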

How the data were processed

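Per the submitters' processing notes, Bowtie and mm9 were used. Versions, mismatch settings, removal of PCR copies and cluster filters are not stated. The deposited files list the first base, last base, strand and crosslink position of 1 aligned read per line (unit: other, genome positions). In 64820 of 64820 anti-Rbfox1 and 569 of 569 anti-Flag reads that position lay 1 base upstream of the read. No 2 reads of a library had the same start, end and strand, and every cluster had at least 2 positions, so the reads had been collapsed and filtered before deposit, and read numbers do not count all molecules.

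Clusters were built over each whole library and then restricted to the gene windows. Stretches joined clusters whose outer bases lay within 1000 nt. Intervals are 95% exact ones. Named clusters are the highest of a gene and those of 10 or more reads. Smaller clusters that are described were picked with their values in view. The members, windows and lists were chosen with earlier results of these data known. Of the steps described here, the counting of reads in windows and the joining into clusters were tested on simulated data. A planned list of other GABA genes needs an mm9 annotation and was not analysed here. Software was Python 3.11.15 with scipy 1.17.1, numpy 2.4.6, pandas 2.3.3 and matplotlib 3.10.9.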

Additional observations from a re-analysis of the deposited data

How the results depend on the processing

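Of 35 alternative settings, 29 left a value within its interval, or a count within 1.5 times of its value, and 6 moved it. One setting counted reads with the same last base and crosslink positions 1 nt apart as 1 read. It gave 341 Gad1 reads instead of 413, within 1.5 times but below the interval of 374 to 455. For Gad2 it gave 47 reads instead of 51. Counting distinct crosslink positions instead of reads gave a Gad1 share of the anti-Rbfox1 library of 0.390% instead of 0.637%, and counting reads of clusters of at least 5 reads alone gave 0.879%. The ratio of Gad2 to Gad1 reads was 0.123. It was 0.235 by positions and 1 within the ninth block, where each gene had 2 reads, and 0.119 within the fourth. Joining within 50 nt merged neighbours and gave a share of Gad2 reads in its highest cluster of 76.5% instead of 51.0%. Of the 5 Gad2 clusters, 3 held at least 5 reads. Ranking clusters by positions, chosen after the data were seen, put the highest Gad1 cluster at rank 50 and that of Gad2 at 295. No paired analysis was possible because there is a single library per antibody, and none could be left out. The 569 control reads limit the comparison with the control.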
